A study of Mus musculus with 4 samples.

Results

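A set of 10 genes that mark large peritoneal macrophages (LPMs) were followed in chromatin accessibility data: Icam2, Adgre1, Cd93, Cxcl13, Prg4, Lbp, Ltbp1, Arg1, Bhlhe40 and Garnl3. Overlapping peaks (by 1 bp or more) were joined across the 4 libraries, and a joined region was assigned to a gene when the gene's transcription start site (TSS) was the nearest to its midpoint or when it overlapped the gene body. Of 70744 joined regions, 112 belonged to the 10 genes. All 10 had at least 2 regions, from 2 at Bhlhe40 and 3 at Lbp to 18 at Cd93 and 27 at Ltbp1.

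The assay was ATAC-seq, which marks open chromatin by the insertions of a transposase, on sorted LPMs of C57BL/6 mice aged 9 weeks. The 2 genotypes were Rxrab fl/fl (replicates 1 and 3, here called control) and LysMCre+ Rxrab fl/fl (replicates 1 and 2, here called Cre+), so that all mice carried floxed alleles of Rxra and Rxrb and those with Cre delete them in cells that use the LysM promoter, which is active across myeloid cells. Each library came from 40000 cells, and all 4 are recorded under the same library batch. The labels do not say whether replicates are separate mice, and p values then measure only the spread between these libraries. The study left out samples that did not cluster with their group, so the spread within a genotype may be understated, and deletion of the floxed exons cannot be read from peak lists.

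LPMs are resident macrophages of the serous cavities that are seeded before birth and maintain themselves locally. Their identity depends on the transcription factor GATA6 and on vitamin A signals from the surrounding tissue, which act through nuclear receptors that pair with RXRs. The 10 genes encode surface proteins, secreted proteins, an enzyme and regulators by which these cells are told from small peritoneal macrophages (SPMs). SPMs are monocyte-derived and are the minority of the cavity at steady state in wild-type mice. In LysMCre+ Rxrab fl/fl mice, the paper reported that SPMs rise with age to become the main peritoneal phagocytes.

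The libraries differed in yield. The deposited lists held 38048 and 16097 peaks in control replicates 1 and 3, and 65421 and 55581 peaks in Cre+ replicates 1 and 2. The lowest local background of a library, which follows its number of tags, was 1.97 and 1.06 tags in controls and 1.33 and 1.08 in Cre+ LPMs. Control replicate 3 thus had the fewest peaks, while its background was close to that of Cre+ replicate 2. Regions of macrophage markers (50 of 6 genes, such as Csf1r and Spi1) numbered 33 and 15 in controls and 45 and 40 in Cre+ LPMs. The LPM markers Gata6, Timd4, Adgre1 and Icam2 had a called promoter-TSS region (from 1 kb before a TSS to 200 bp after it) in every library. Regions near B cell markers (8 regions of 5 genes) numbered 2 and 0 in controls against 7 and 4 in Cre+ LPMs, those near T cell markers (6 of 4 genes) 2 and 0 against 6 and 3, those near neutrophil markers (5 of 5 genes) 2 and 0 against 5 and 4, those near mast cell markers (2 of 3 genes) 0 and 0 against 2 and 0, those near mesothelial markers (8 of 4 genes) 1 and 1 against 7 and 7, and those near SPM markers (28 of 3 genes) 13 and 3 against 23 and 22. The defining markers Cd79a, Cd3g, Cpa3, Fcer1a and Wt1 had no region in any library, while Pax5, Ebf1, Ms4a1, Cd3e, Cd4, Bcl11b, Kit, Msln, Upk3b, Krt19 and all 5 neutrophil markers had at least 1. The Cre+ libraries also held the most peaks, and the part of other cells in the results was not tested.

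Each peak has 2 readouts at its summit. The fold enrichment is the deposited ratio of the tags at the summit to those of the surrounding background, after a tag is added to both. The pileup is the whole number of tags over the summit, which was derived from the deposited enrichment together with its p value. For comparison between libraries, both were divided by the median of the library over the 15199 regions called in all 4 libraries, which was 14.5, 7.52, 15.1 and 12 for fold enrichment and 97, 20, 99 and 65 tags for the pileup, in the order control replicates 1 and 3 and Cre+ replicates 1 and 2. All values in 4 libraries below keep this order. Changes are given as the log2 of Cre+ over control with the standard error (SE), from limma fitted across all regions, with Benjamini-Hochberg adjusted p values over all regions. To be called, a region needed an adjusted p below 0.05 with a log2 fold change beyond 1 in either direction.

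Of the 112 regions, 10 lay in promoter-TSS, 40 in introns, 2 in exons, 55 upstream and 5 downstream of their gene. The promoter-TSS share was 8.93%, against 17.6% of all regions, and 6 regions inside Garnl3 or Ltbp1 lay nearer to the TSS of a neighbouring gene. A TSS of 8 of the 10 genes was covered by a region. Prg4, which encodes the lubricating glycoprotein lubricin, and Arg1, which encodes the arginine-cleaving enzyme arginase 1, had none over their TSS.

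**Figure D1:**
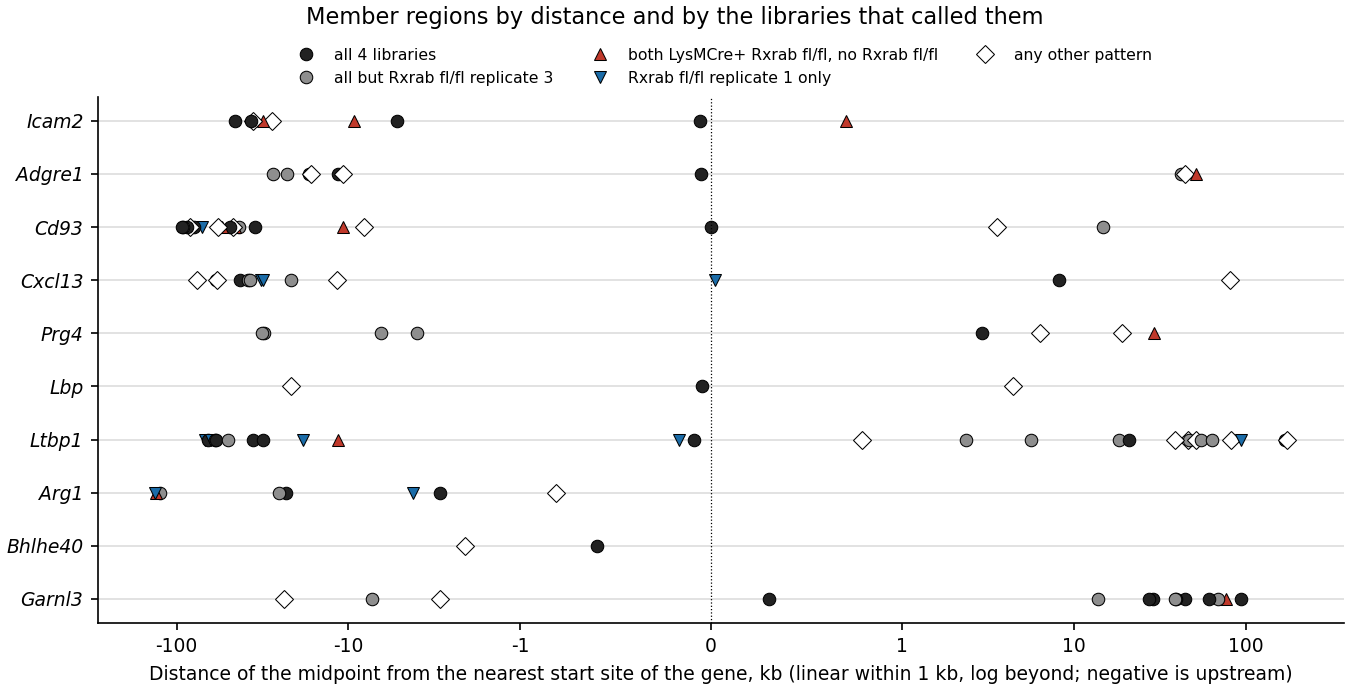
Position of the 112 regions along the distance of their midpoint from the nearest start site of their gene, in kb (linear within 1 kb, log scale beyond), with 1 row per gene and a symbol for the libraries that called the region. Most regions lay more than 1 kb from a start site, and the 11 regions found in control replicate 1 alone (blue) included a promoter-TSS region of Cxcl13 and of Ltbp1.

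Sequences are shown for 9 windows of 201 bases centred on a summit and for the Cxcl13 promoter, all on the plus strand of mm10, with matches to the motifs searched in capitals. The letters searched were AGATAA for GATA factors, AGGAAGT for PU.1, TGANTCA for AP-1, TTGCNNAA for C/EBP, CCNCACCC for KLF factors, TGACAG for MEIS and AGGTCA for nuclear receptors, with the DR1 and DR5 elements, which are direct repeats of variants of that hexamer with a spacer of 1 or 5 bases. Both strands were searched, and AGGTCA can lie within a DR1. The first 4 windows hold regions with the highest fold enrichment at these genes. The Icam2 window is chr11:106428157-106428357, the Cd93 window chr2:148478434-148478634, the Ltbp1 window chr17:75349181-75349381 and the Arg1 window chr10:24930265-24930465.
Icam2, 45.5 kb upstream: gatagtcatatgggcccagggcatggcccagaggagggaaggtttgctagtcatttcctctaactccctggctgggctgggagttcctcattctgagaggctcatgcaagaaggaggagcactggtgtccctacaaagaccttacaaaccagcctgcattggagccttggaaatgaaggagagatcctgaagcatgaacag
Cd93, 35.0 kb upstream: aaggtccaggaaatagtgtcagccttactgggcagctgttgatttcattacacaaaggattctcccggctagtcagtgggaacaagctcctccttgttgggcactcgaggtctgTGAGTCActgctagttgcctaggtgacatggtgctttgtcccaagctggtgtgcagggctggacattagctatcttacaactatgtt
Ltbp1, intron: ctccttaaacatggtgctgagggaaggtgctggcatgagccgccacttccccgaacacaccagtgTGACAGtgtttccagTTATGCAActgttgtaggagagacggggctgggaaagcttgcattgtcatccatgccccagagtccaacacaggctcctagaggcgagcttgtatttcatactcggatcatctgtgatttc
Arg1, 2.92 kb upstream: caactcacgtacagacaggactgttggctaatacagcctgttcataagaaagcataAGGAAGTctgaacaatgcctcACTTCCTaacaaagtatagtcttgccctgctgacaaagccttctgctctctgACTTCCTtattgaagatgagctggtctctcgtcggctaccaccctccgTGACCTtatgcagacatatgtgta
The Cd93 window held 1 AP-1 match, the Ltbp1 window a MEIS and a C/EBP match, and the Arg1 window 3 PU.1 matches and 1 AGGTCA. None of the motifs was found in the Icam2 window.

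The next 5 windows are the regions whose pileup was called lower in Cre+ LPMs. They are chr2:148492280-148492480 and chr2:148530583-148530783 upstream of Cd93, chr17:75142893-75143093 in an intron of Ltbp1, and chr2:33041686-33041886 and chr2:33047000-33047200 in introns of Garnl3.
Cd93, 49.0 kb upstream: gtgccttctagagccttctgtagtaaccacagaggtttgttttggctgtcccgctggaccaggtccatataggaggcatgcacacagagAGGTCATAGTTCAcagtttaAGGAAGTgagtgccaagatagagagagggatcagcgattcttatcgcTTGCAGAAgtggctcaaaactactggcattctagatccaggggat
Cd93, 87.2 kb upstream: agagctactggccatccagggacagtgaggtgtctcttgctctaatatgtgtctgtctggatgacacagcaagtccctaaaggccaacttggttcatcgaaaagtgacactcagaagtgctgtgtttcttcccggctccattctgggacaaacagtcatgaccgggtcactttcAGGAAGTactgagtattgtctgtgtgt
Ltbp1, intron: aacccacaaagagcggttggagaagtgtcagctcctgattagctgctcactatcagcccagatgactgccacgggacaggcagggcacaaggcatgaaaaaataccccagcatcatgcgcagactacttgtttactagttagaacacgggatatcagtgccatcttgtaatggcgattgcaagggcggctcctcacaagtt
Garnl3, intron, 89.6 kb into the gene: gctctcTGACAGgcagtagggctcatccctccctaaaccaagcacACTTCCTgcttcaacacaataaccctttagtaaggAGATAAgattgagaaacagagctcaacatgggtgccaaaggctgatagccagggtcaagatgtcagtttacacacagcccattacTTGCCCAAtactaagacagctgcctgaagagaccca
Garnl3, intron, 84.3 kb into the gene: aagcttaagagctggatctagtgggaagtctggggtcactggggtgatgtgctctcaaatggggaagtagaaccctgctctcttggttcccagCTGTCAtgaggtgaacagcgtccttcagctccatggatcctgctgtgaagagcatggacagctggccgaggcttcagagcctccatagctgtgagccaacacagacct
The first Cd93 window held a DR1 element beside a PU.1 and a C/EBP match. It was the only DR1 match among the 112 member regions (0.893%), against 117 of all 70744 regions (0.165%). The second Cd93 window held a PU.1 match, the first Garnl3 window held MEIS, PU.1, GATA and C/EBP matches, the other Garnl3 window a MEIS match, and the Ltbp1 window none.

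Across the 112 member regions, a GATA match lay within 100 bp of the strongest summit in 14 (12.5%), against 6.43% of all regions. Among the regions called in all 4 libraries it was found in 8 of 35 member regions (22.9%) and in 5.04% of all regions. PU.1, the lineage factor of macrophages, matched in 12 of these 35 (34.3%) against 16.4%, and in 23.2% of the 112 against 20.6% of all regions. MEIS matched in 10 of the 35 (28.6%) against 16%, and in 20.5% of the 112 against 16.6%. C/EBP matched in 7 of the 35 (20%) against 10.2%, and in 17.0% of the 112 against 11.0%. AP-1 matched in 7 of the 35 (20%) against 12.3%, and in 12.5% of the 112 against 12.7%. KLF matched in 2 of the 35 (5.71%) against 13.4%, and in 6.25% of the 112 against 11.0%. AGGTCA matched in 4 of the 35 (11.4%) against 12.3%, and in 16.1% of the 112 against 13.0%. The difference from all regions was smaller over the 112 than over the 35 for GATA, PU.1, MEIS, C/EBP and KLF, and it changed sign for AP-1 and AGGTCA. A DR5 element was found in 1 of the 112 member regions, at Arg1, against 0.153% of all regions. The 112 member regions also held a smaller promoter-TSS share than all regions (8.93% against 17.6%). Its part in the motif shares was not tested. A match is a run of letters and does not show that a factor binds.

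Calls at the 10 genes were compared with those at all regions first, since the number of peaks differed between libraries. Of the 112, 82 and 35 were called in controls and 86 and 88 in Cre+ LPMs. A total of 35 (31.3%) were called in all 4 libraries, against 21.5% of all regions, and 27 (24.1%) in all but control replicate 3, against 25.5%. Regions called in both Cre+ libraries and in no control library numbered 11 (9.82%), against 22.8% of all regions. None was called in both controls and no Cre+ library, against 32 of all regions (0.0452%). The 35 calls of control replicate 3 were those shared by all libraries, so no member region could show that pattern.

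Control replicate 1 alone called 11 of the 112 member regions (9.82%), against 1.73% of all regions. Of these 11, 5 were at Ltbp1, 3 at Cxcl13, 2 at Arg1 and 1 at Cd93. For 16 other LPM genes, Gata6 and Timd4 among them, the same share was 9.62% of 104 regions, and for 12 SPM genes, such as Ccr2 and Irf4, it was 2.44% of 82 regions. Regions called in both Cre+ libraries alone made up 5.77% of the regions of the other LPM genes and 29.3% of those of the SPM genes. The lists were set side by side, here and below, without a test of the lists. They were chosen with earlier results of these data known. Among the other LPM genes, the paper reported lower accessibility at Gata6, Naip1, Thbs1 and Serpinb2 in RXR-deficient LPMs. Among the SPM genes, it reported higher accessibility at Fcrls, Cd209d, Retnla, Mrc1 and Ccr2. The contrast between these lists was thus partly set by their choice. Without control replicate 3, regions of both Cre+ libraries alone stayed at 11 (9.82%, against 22.8% of all), and without control replicate 1 there were 38 (33.9%, against 48.3%).

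**Figure D2:**
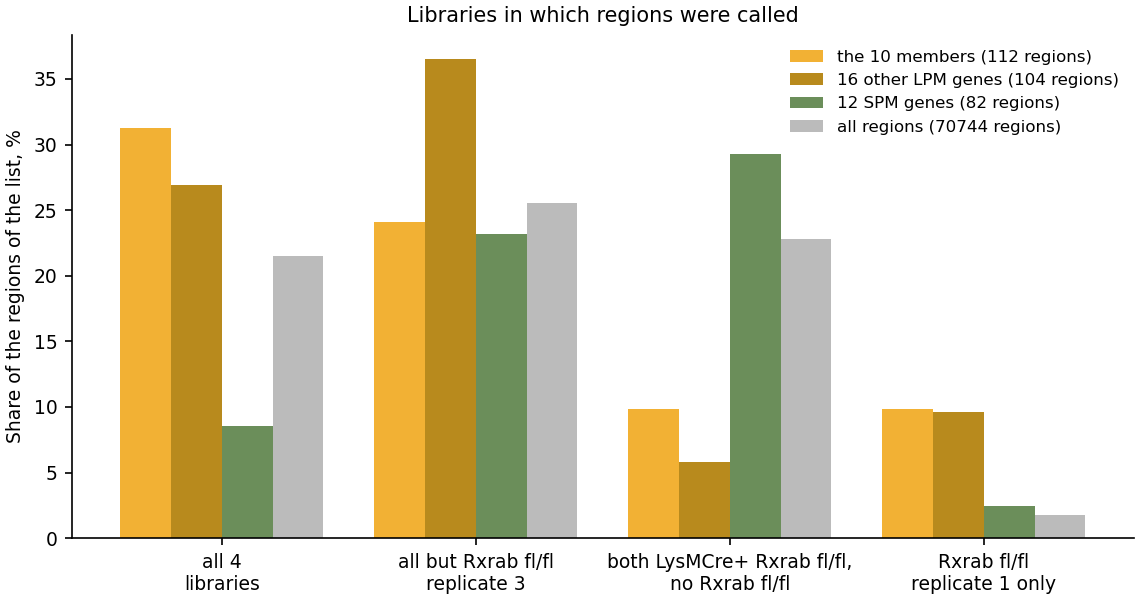
Share of the regions of each list, in %, by the libraries that called them, for the 10 LPM genes (112 regions), 16 other LPM genes (104), 12 SPM genes (82) and all 70744 regions. Regions of both Cre+ libraries alone made up 9.82% at the 10 genes, 5.77% at the other LPM genes and 29.3% at the SPM genes, against 22.8% of all regions. The other LPM genes and the SPM genes include some that the paper reported as changed in accessibility.

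When the same number of peaks was taken from each library, the order of the genotypes was the other way round. Among the 16097 peaks of lowest p, 35 member regions held a peak in each control library, and 16 and 24 in Cre+ LPMs. These were 31.3% of the 112 member regions in each control and 14.3 and 21.4% in Cre+ LPMs. Over all regions the shares were 22.5, 21.9, 22.7 and 22.7%. Cre+ replicate 2 thus lay near the share of all regions. The genotypes did not overlap, and with 2 libraries each a two-sided exact permutation test cannot give a p below 0.333. With 10000 peaks the counts were 19 and 20 against 11 and 14, and with 5000 peaks 12 and 12 against 5 and 10. With the 38048 peaks of control replicate 1 as the limit, which leaves out control replicate 3, the counts were 82 against 49 and 61. These were 73.2% against 43.8 and 54.5%, where all regions had 52.0, 53.2 and 53.3%.

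Merging these equal lists again gave 41 member regions, of which 12 (29.3%) were called in both control libraries and neither Cre+ library, against 7.22% of all 22300 regions. None had the opposite pattern, against 7.82% of all regions. In the full lists, every member region called in control replicate 3 was also called in both Cre+ libraries. The 12 were thus called in Cre+ LPMs too, at a lower rank, and were not absent there. The 12 regions were spread over 8 of the 10 genes, with 3 each at Garnl3 and Cd93 and 1 each at Icam2, Adgre1, Cxcl13, Prg4, Lbp and Ltbp1, and those of Icam2 and Lbp covered the promoter. With each library left out in turn, which lets fewer libraries make a call, they numbered 13 to 17 (31.7 to 41.5%), against 10.1 to 13.4% of all regions, and the opposite pattern was seen in 0 to 2, against 9.31 to 14.2%. At the other LPM genes, 25 and 28 regions held 1 of the 16097 peaks in controls and 13 and 15 in Cre+ LPMs, and at the SPM genes 4 and 7 against 9 and 9. The shares were 24.0, 26.9, 12.5 and 14.4% at the other LPM genes and 4.88, 8.54, 11.0 and 11.0% at the SPM genes.

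**Figure D3:**
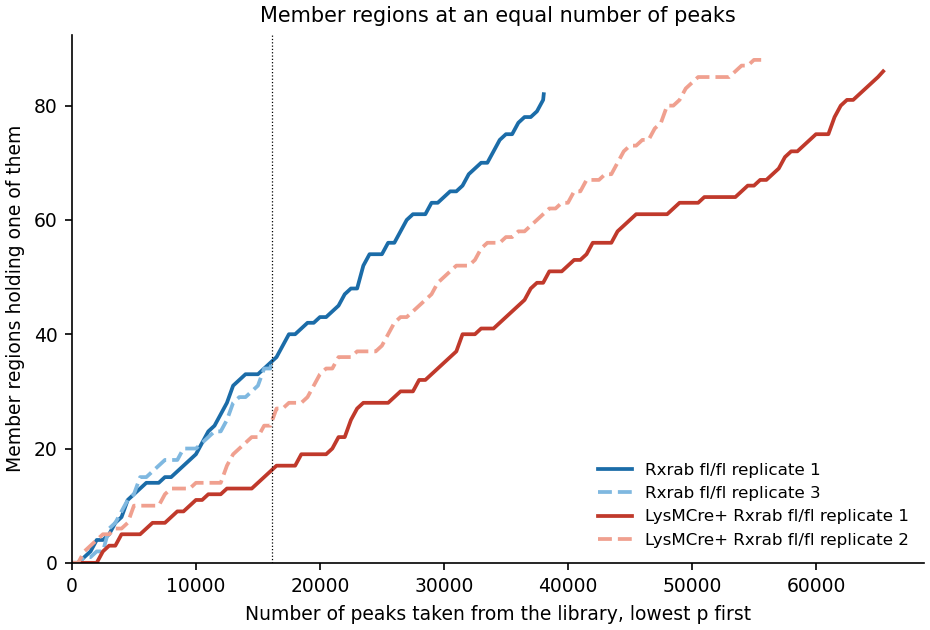
Number of member regions (vertical axis) that held at least 1 of the peaks of lowest p, against the number of peaks taken from each library (horizontal axis), with the dotted line at 16097 peaks. At that line both control libraries stood at 35 regions (31.3%), and the Cre+ libraries at 16 and 24 (14.3 and 21.4%). Over all regions the share was 21.9 to 22.7%.

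The strength of the 35 member regions called in all 4 libraries was tested next. Here and below, these were the 35 calls of control replicate 3, the library with the fewest peaks. The choice can favour regions strong in that library, and its part in the changes was not tested. No member region passed the call on fold enrichment in either direction, against 6 of 15199 regions called higher (0.0395%) and 7 called lower (0.0461%) in Cre+ LPMs. At an unadjusted p under 0.05 from limma there were 4 member regions and 3345 of all regions. The median log2 fold change was −0.19 over the 35 member regions and −0.09 over all regions. Among regions called in at least 1 library of each genotype, it was 0.06 over 71 member regions and 0.20 over 35577 regions. Both Cre+ libraries lay below both control libraries in 12 member regions, against 32.9% of all regions, and above them in 8, against 22.3%.

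On the pileup, 5 member regions passed the call as lower in Cre+ LPMs (14.3% of 35, against 4.98% of 15196 regions), and none as higher, against 2.49%. The median log2 fold change was −0.65 over the member regions, where 31 of 35 were negative, and −0.10 over all regions, where 57.1% were. Both Cre+ libraries lay below both control libraries in 22 member regions (62.9%), against 36.9% of all regions, and above them in 2 (5.71%), against 25.2%. For the other LPM genes the median was −0.76 over 28 regions with 8 called lower, and for the SPM genes it was 0.11 over 7 regions with none called. At an unadjusted p under 0.05 from limma there were 18, 18 and 2 regions in the 3 lists and 5047 of the 15196 regions in all. At an adjusted p under 0.05 from limma, whatever the fold, there were 8 of the 35 member regions and 1813 of the 15196 regions, and the 3 member regions short of the fold threshold lay at Cd93, Lbp and Bhlhe40.

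The 5 calls depended on the libraries. Without control replicate 1, 13 of 35 member regions (37.1%) were called lower on the pileup, against 8.31% of all regions. Without control replicate 3, the median log2 fold change of the pileup was −0.88 over 62 member regions, against −0.11 over all regions. Without Cre+ replicate 1, only the Cd93 region 49.0 kb upstream was called lower (adjusted p = 0.0428 from limma), against 2.94% of all regions. Without Cre+ replicate 2, no member region and none of 15336 regions was called, with 3364 at an unadjusted p under 0.05. The member median of the pileup change was −1.02 without Cre+ replicate 2 and −0.30 without Cre+ replicate 1, and thus negative in both.

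**Figure D4:**
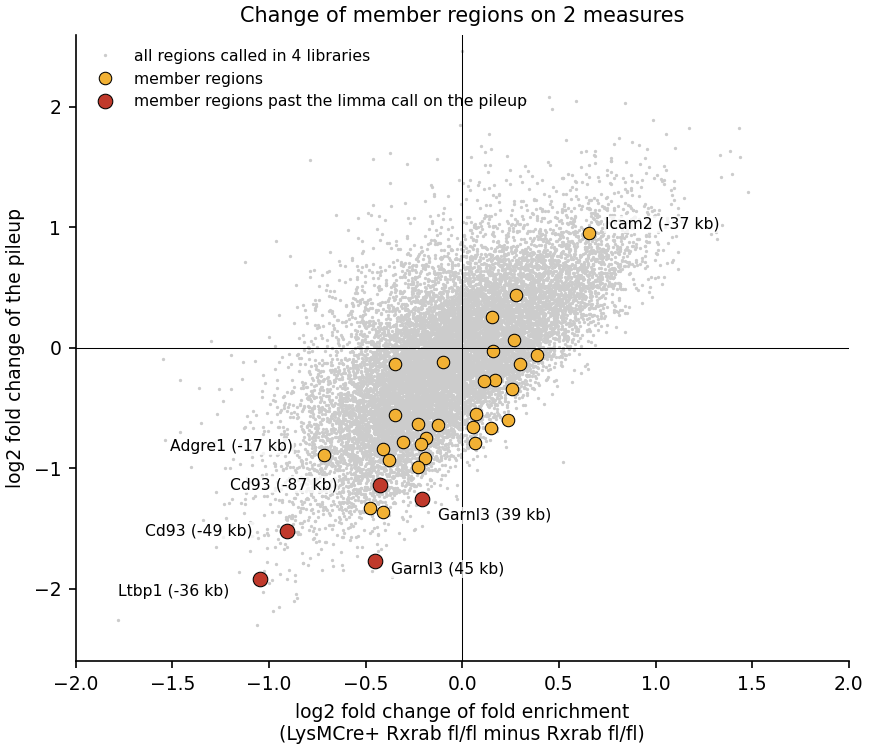
Change of the 35 member regions called in all 4 libraries, as log2 of Cre+ over control, for fold enrichment (horizontal axis) and pileup (vertical axis), over all regions called in 4 libraries (grey), with labels that give the distance to the nearest annotated start site of the gene. The 5 regions called on the pileup (red) lay between −1.92 and −1.14 on the vertical axis, and 31 of 35 member regions lay below 0 on it.

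The 2 readouts differ by the local background, which is the tag level around the summit. Over all regions called in 4 libraries its median was 5.8 and 1.8 tags in controls and 5.68 and 4.42 tags in Cre+ LPMs. Over the 35 member regions it was 6.14 and 2.04 tags in controls and 3.40 and 3.30 in Cre+ LPMs. Relative to all regions, the member background was thus 1.06 and 1.13 times the median in controls and 0.599 and 0.747 times in Cre+ LPMs. Both Cre+ libraries were below both control libraries in 26 of 35 member regions (74.3%), against 29.8% of all regions. Relative to the library medians, the pileup and the local background were thus both lower at most member regions in Cre+ LPMs, and the ratio of the 2 moved less. The background was derived from the same enrichment and p value as the pileup, so the 2 are not independent measures. In a bulk sample, fewer cells with an open region and less opening per cell cannot be told apart.

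Of the genes for surface proteins, Cd93 had the most regions. It encodes a C-type lectin-like receptor with a part in the uptake of dying cells (chr2:148436651-148443535, minus strand). Its 18 regions reached 93.2 kb upstream, and 12 and 6 were called in controls against 14 and 15 in Cre+ LPMs. In all 4 libraries 6 were called, and 3 in both Cre+ libraries alone.

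The region 49.0 kb upstream of Cd93 (chr2:148492123-148492853), which holds the DR1 element, had a fold enrichment of 19.6, 11.4, 12.2 and 8.68. Relative to the library medians this was 1.35 and 1.51 in controls and 0.803 and 0.723 in Cre+ LPMs. The genotypes did not overlap, with a log2 fold change of −0.91 (SE 0.21, adjusted p = 0.0649 from limma), which missed the call. Its pileup was 141, 34, 60 and 32 tags, or 1.45, 1.70, 0.606 and 0.492 times the medians. On the pileup it was called lower in Cre+ LPMs, with a log2 fold change of −1.52 (SE 0.23, adjusted p = 0.0183 from limma). The region 87.2 kb upstream (chr2:148530423-148530949) was also called lower on the pileup, with 96, 24, 45 and 35 tags and a log2 fold change of −1.14 (SE 0.23, adjusted p = 0.0252 from limma). Its fold enrichment of 13.1, 7.67, 10.5 and 8.87 changed by −0.43 (SE 0.21, adjusted p = 0.248 from limma).

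Other regions of Cd93 did not pass a call. The strongest, 35.0 kb upstream (chr2:148478261-148478725), had a fold enrichment of 22.2, 11.2, 26.9 and 22.0. Relative to the medians, 1.53 and 1.49 in controls stood below 1.78 and 1.83 in Cre+ LPMs, a log2 fold change of 0.26 (SE 0.21, adjusted p = 0.479 from limma). Its pileup of 132, 29, 121 and 65 tags changed by −0.35 (SE 0.23, adjusted p = 0.314 from limma), so that its direction depended on the readout. The region over the TSS had a fold enrichment of 7.54, 3.55, 8.22 and 8.16 and pileups of 45, 9, 36 and 31 tags, with log2 fold changes of 0.30 and −0.13 (adjusted p = 0.434 and 0.720 from limma). Over the 6 regions called in all libraries, the mean pileup of Cd93 changed by −0.82 (SE 0.19, adjusted p = 0.0236 from limma across genes) and the mean fold enrichment by −0.20 (SE 0.17, adjusted p = 0.495).

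Icam2, which encodes the adhesion molecule CD102 of LPMs (chr11:106377656-106382781, minus strand), had the only positive mean change of pileup among the 10 genes. Of its 9 regions, 5 and 4 were called in controls and 7 and 9 in Cre+ LPMs, and 3 in both Cre+ libraries alone. The region 36.9 kb upstream (chr11:106419407-106420035) had a fold enrichment of 6.71, 4.85, 13.3 and 10.1 and pileups of 28, 9, 64 and 49 tags. Relative to the medians, its pileup was 0.289 and 0.450 in controls and 0.646 and 0.754 in Cre+ LPMs, without overlap. Among the 35 member regions called in all libraries it had the largest positive change, a log2 fold change of 0.65 in fold enrichment (SE 0.23, adjusted p = 0.127 from limma) and of 0.95 in pileup (SE 0.27, adjusted p = 0.0509 from limma), and neither passed the call. With quantile normalization of the pileup it was called higher, at a log2 fold change of 1.16 (adjusted p = 0.0164 from limma).

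The strongest region of Icam2, 45.5 kb upstream (chr11:106428060-106428501), had the highest mean log2 fold enrichment of all member regions, with a fold enrichment of 22.8, 11.2, 26.0 and 24.0, and pileups of 140, 25, 155 and 138 tags. Its log2 fold change was 0.28 in fold enrichment (SE 0.21, adjusted p = 0.450 from limma) and 0.44 in pileup (SE 0.24, adjusted p = 0.237 from limma). The region over the Icam2 TSS, with a GATA and a PU.1 match, had a fold enrichment of 10.0, 4.96, 9.54 and 7.55 and pileups of 75, 12, 49 and 52 tags. Its genotypes overlapped on the pileup, and its changes of −0.10 and −0.11 were below their SE of 0.21 and 0.28. Over its 4 regions called in all libraries, the mean pileup of Icam2 changed by 0.29 (SE 0.21, adjusted p = 0.368 from limma across genes), which did not pass the test. For RNA and surface protein, the paper reported lower Icam2 and CD102 in LPMs of mice with Rxra alone deleted. That genotype and those readouts differ from the ones here.

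Adgre1 encodes F4/80 (chr17:57358686-57483529, plus strand), the macrophage surface protein whose high level defines LPMs in the gating of the study, so that cells of both genotypes were chosen by its product. Of its 10 regions, 8 and 3 were called in controls and 8 and 9 in Cre+ LPMs. Its strongest region covered the TSS (chr17:57358407-57358857), with a fold enrichment of 16, 10.0, 11.9 and 12.7 and pileups of 94, 26, 45 and 56 tags. The changes were −0.41 in fold enrichment (SE 0.23, adjusted p = 0.301 from limma) and −0.84 in pileup (SE 0.32, adjusted p = 0.109 from limma). The region 17.0 kb upstream (chr17:57341504-57341939), which held a GATA match, had a fold enrichment of 10.4, 6.12, 6.86 and 5.72, or 0.714 and 0.813 times the medians in controls and 0.453 and 0.476 times in Cre+ LPMs. Its log2 fold change was −0.71 (SE 0.21, adjusted p = 0.0911 from limma), which did not pass the call.

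Among the secreted proteins, Ltbp1 had the most regions. It encodes a protein of the extracellular matrix that binds the latent form of TGF-β, and it spans 387 kb (chr17:75005529-75392512, plus strand) with a long and a short isoform from 2 TSSs. Of its 27 regions, 22 and 7 were called in controls and 17 and 21 in Cre+ LPMs. It was 1 of 2 genes, with Cxcl13, at which control replicate 1 had more calls than either Cre+ library.

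The Ltbp1 region 35.9 kb upstream of the short isoform, in an intron of the long isoform (chr17:75142648-75143149), had the largest negative change of the 35 member regions on both readouts. Its fold enrichment was 10.1, 6.36, 4.44 and 5.65, or 0.696 and 0.845 times the medians in controls and 0.293 and 0.470 times in Cre+ LPMs. The log2 fold change was −1.05 (SE 0.25, adjusted p = 0.0658 from limma) and missed the call. Its pileup of 78, 21, 14 and 27 tags was called lower, with a log2 fold change of −1.92 (SE 0.44, adjusted p = 0.0303 from limma). On fold enrichment it was called lower with a mean-variance trend (adjusted p = 0.0464 from limma), among regions called in at least 1 library of each genotype (adjusted p = 0.0214), without control replicate 1 (log2 fold change −1.19, adjusted p = 0.00216) and without control replicate 3 (log2 fold change −1.24, adjusted p = 0.0452). It was not called without Cre+ replicate 1 (log2 fold change −0.71, adjusted p = 0.477 from limma) or without Cre+ replicate 2 (log2 fold change −1.39, adjusted p = 0.0611), and over all alternatives its adjusted p ran from 0.00216 to 0.993. Another intronic region, named after its values were seen, 65.7 kb upstream of the short isoform (chr17:75112845-75113308), had 172, 51, 53 and 83 tags. Its pileup changed by −1.36 (SE 0.39, adjusted p = 0.0525 from limma) and missed the call, and its fold enrichment changed by −0.41 (SE 0.22, adjusted p = 0.293 from limma).

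The strongest region of Ltbp1 (chr17:75349053-75349545), in an intron and nearer to the TSS of Rasgrp3, had a fold enrichment of 23.3, 10.9, 19.4 and 18.3 and pileups of 168, 33, 79 and 96 tags. Its changes were −0.13 in fold enrichment (SE 0.21, adjusted p = 0.751 from limma) and −0.64 in pileup (SE 0.30, adjusted p = 0.173 from limma). The start sites of the 2 isoforms differed in their calls. The region over the TSS of the long isoform was called in all libraries, with a fold enrichment of 9.13, 4.74, 9.79 and 10.6 and a change of 0.27 (SE 0.22, adjusted p = 0.497 from limma). The region 0.167 kb from the TSS of the short isoform (chr17:75178507-75178721) was called in control replicate 1 alone, with a fold enrichment of 3.87 and 20 tags.

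Cxcl13 encodes a chemokine that draws B cells into the serous cavities (chr5:95956939-95961068, plus strand). Of its 13 regions, 10 and 3 were called in controls and 9 and 7 in Cre+ LPMs. The region over its TSS (chr5:95956844-95957080) was called in control replicate 1 alone, with a fold enrichment of 6.40 and 18 tags, and 2 further regions 31.4 and 32.3 kb upstream shared this pattern, with 11 and 16 tags. Control replicate 3 called none of the 3, and the part of depth in these calls was not tested. The 250 bases before the TSS (chr5:95956689-95956938, plus strand, from RefSeq, build GRCm38.p6) held a C/EBP and an AGGTCA match, both on the minus strand.
Cxcl13 promoter: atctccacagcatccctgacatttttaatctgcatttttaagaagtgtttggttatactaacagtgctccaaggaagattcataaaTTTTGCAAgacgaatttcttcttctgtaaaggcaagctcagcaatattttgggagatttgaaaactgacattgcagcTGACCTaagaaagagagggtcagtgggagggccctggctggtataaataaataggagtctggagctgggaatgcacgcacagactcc
The strongest region of Cxcl13, 21.7 kb upstream (chr5:95935013-95935552), was called in all libraries but control replicate 3, with a fold enrichment of 11.4 in control replicate 1 and of 14.6 and 15.3 in Cre+ LPMs. Its pileup was 33 tags against 33 and 36, or 0.34 times the median against 0.333 and 0.554 times, and was not tested. Over the 3 regions called in all libraries, the mean pileup changed by −0.65 (SE 0.32, adjusted p = 0.177 from limma across genes).

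Prg4, which encodes lubricin (chr1:150449412-150466165, minus strand), had 8 regions, with 5 and 1 calls in controls and 7 and 7 in Cre+ LPMs. Its strongest region, 30.9 kb upstream (chr1:150496697-150497364), had a fold enrichment of 10.2 in control replicate 1 and of 6.88 and 8.33 in Cre+ LPMs, with 41 tags against 18 and 20, and was not called in control replicate 3. Only the region 2.94 kb into the gene (chr1:150463036-150463410) was called in all libraries, with pileups of 50, 15, 31 and 27 tags. Relative to the medians, these were 0.515 and 0.75 in controls and 0.313 and 0.415 in Cre+ LPMs, and the change was −0.79 (SE 0.27, adjusted p = 0.0821 from limma). Its fold enrichment changed by −0.31 (SE 0.23, adjusted p = 0.444 from limma).

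Lbp encodes the lipopolysaccharide-binding protein, which presents bacterial lipopolysaccharide to CD14 (chr2:158306493-158332852, plus strand). Of its 3 regions, that over the TSS (chr2:158305945-158306951) was the only one called in controls. Its pileups of 72, 16, 37 and 29 tags were 0.742 and 0.8 times the medians in controls and 0.374 and 0.446 times in Cre+ LPMs. The log2 fold change was −0.92 (SE 0.22, adjusted p = 0.0364 from limma), past the p threshold and short of the fold threshold. Its fold enrichment of 10.2, 4.94, 8.41 and 7.65 changed by −0.19 (SE 0.21, adjusted p = 0.604 from limma).

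Bhlhe40, the only transcription factor among the 10 genes, is known for its part in the proliferation and maintenance of LPMs (chr6:108660629-108666925, plus strand). It had 2 regions, and that over its TSS (chr6:108659277-108660788) was called in all libraries. Its pileups of 338, 59, 147 and 124 tags were 3.48 and 2.95 times the medians in controls and 1.48 and 1.91 times in Cre+ LPMs. The genotypes did not overlap, and the log2 fold change was −0.93 (SE 0.24, adjusted p = 0.0399 from limma), short of the fold threshold. The local background of this region was 33.0 and 6.92 tags in controls against 16.5 and 13.3 in Cre+ LPMs. Its fold enrichment of 9.96, 7.58, 8.47 and 8.77 changed by −0.38 (SE 0.24, adjusted p = 0.370 from limma).

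Arg1 (chr10:24915207-24927470, minus strand) had the smallest change of mean pileup among the 10 genes. Of its 8 regions, 6 and 2 were called in controls and 6 and 5 in Cre+ LPMs. The strongest, 2.92 kb upstream with 3 PU.1 matches (chr10:24930127-24930650), had a fold enrichment of 18.0, 9.12, 20.7 and 16.5 and pileups of 140, 26, 137 and 85 tags. Its changes were 0.16 in fold enrichment (SE 0.20, adjusted p = 0.672 from limma) and −0.026 in pileup (SE 0.22, adjusted p = 0.945 from limma). The region 23.0 kb upstream (chr10:24950215-24950765), with a GATA match, had a fold enrichment of 11.0, 4.64, 13.8 and 10.5 and changed by 0.39 (SE 0.21, adjusted p = 0.297 from limma). Over both regions, the mean pileup changed by −0.042 (SE 0.19, adjusted p = 0.898 from limma across genes). A p above the threshold does not show that the genotypes were alike. The paper reported lower Arg1 RNA, in LPMs of mice with Rxra alone deleted.

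Garnl3, which encodes a protein with a Rap GTPase-activating domain (chr2:32986225-33131436, minus strand), had 14 regions, 12 of them inside the gene. It has 4 annotated start sites, and distances into the gene are from the most upstream. Of these 14, 11 and 7 were called in controls and 14 and 12 in Cre+ LPMs. The strongest (chr2:32991963-32992744), at the 3′ end and across an exon, had a fold enrichment of 20.5, 11.1, 24.2 and 19.9 and pileups of 236, 42, 157 and 144 tags, with changes of 0.17 and −0.27 (adjusted p = 0.645 and 0.477 from limma). The region over the most upstream TSS had pileups of 411, 86, 241 and 225 tags and changed by −0.56 (SE 0.25, adjusted p = 0.151 from limma), and by −0.35 in fold enrichment (SE 0.26, adjusted p = 0.443 from limma).

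Introns of Garnl3 held 2 regions that were called lower on the pileup. The region 89.6 kb into the gene (chr2:33041565-33042012) had 126, 29, 26 and 40 tags, or 1.30 and 1.45 times the medians in controls and 0.263 and 0.615 times in Cre+ LPMs, with a log2 fold change of −1.77 (SE 0.36, adjusted p = 0.0258 from limma). The region 84.3 kb into the gene (chr2:33046910-33047281) had 66, 18, 30 and 23 tags and changed by −1.26 (SE 0.24, adjusted p = 0.0228 from limma). Their fold enrichment was 17.4, 8.43, 10.1 and 13.0 in the first and 8.46, 5.40, 9.34 and 6.09 in the second, with changes of −0.45 and −0.21 (adjusted p = 0.294 and 0.594 from limma). The region 72.3 kb into the gene (chr2:33058937-33059330) had 76, 15, 17 and 35 tags and did not pass the call, with a change of −0.48 in fold enrichment (SE 0.26, adjusted p = 0.301 from limma) and −1.33 in pileup (SE 0.45, adjusted p = 0.078 from limma).

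A Garnl3 region 58.8 kb into the gene (chr2:33072397-33072827), which control replicate 3 did not call, had a fold enrichment of 3.36 in control replicate 1 and of 9.42 and 8.64 in Cre+ LPMs. With a value in 1 control library alone, this difference has no replicate check.

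**Figure D5:**
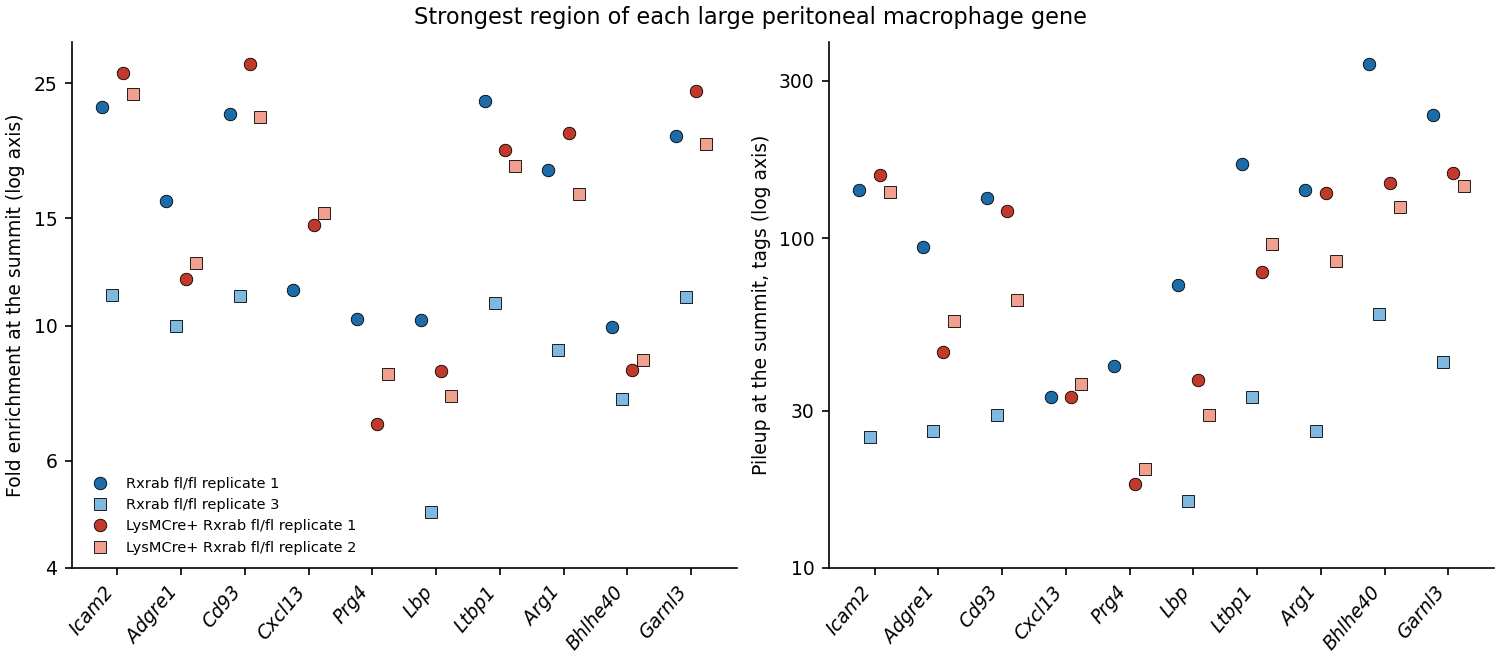
Fold enrichment (left) and pileup in tags (right) at the summit of the strongest region of each gene, both on log axes, with 1 point per library and no scaling to the library medians. Control replicate 3 was the lowest on both wherever it called the region, and control replicate 1 had 338 tags at Bhlhe40 against 147 and 124 in Cre+ LPMs.

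Over whole genes, the mean over the regions called in all 4 libraries gave 1 value per gene and library for 11508 genes. On fold enrichment none of the 10 genes passed the call, against 4 genes called higher (0.0348%) and none called lower (0%), and 8 of 10 log2 fold changes were negative, with a median of −0.18 against −0.09 over all genes. At an unadjusted p under 0.05 from limma there were 0 of the 10 genes and 2511 of all genes. On the pileup none of the 10 genes passed the call either, against 1.5% of genes called higher and 4.54% called lower, while 9 of 10 changes were negative, with a median of −0.78 against −0.14. Of the 10, 4 (Garnl3, Lbp, Cd93 and Bhlhe40) had an adjusted p under 0.05 from limma with changes of −0.95, −0.92, −0.82 and −0.93, against 12.5% of all genes that fell at this threshold alone. The mean pileup of Prg4 changed by −0.79 (adjusted p = 0.0549 from limma), that of Ltbp1 by −0.77 (adjusted p = 0.108) and that of Adgre1 by −0.49 (adjusted p = 0.210).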

How the data were processed

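The data were 4 lists of ATAC-seq peaks from sorted LPMs, 2 per genotype. According to the study's methods and the submitters' processing notes, the authors trimmed reads with cutadapt 1.7, aligned them to mm10 with Bowtie2 4.1.2, discarded duplicates, mitochondrial reads and reads of chromosomes X and Y, ran MACS2 2.1.1 library by library (q of 0.05, reads extended to 200 bp) and dropped blacklisted peaks with bedtools 2.24.0. The deposited fold enrichment is the ratio of summit tags to local background, after a tag is added to both. The deposited −log10 p and −log10 q values give the significance of the summit against that background. The deposited score repeats the q value and was not used. Read counts were not analysed here, so the authors' test with DiffBind 2.6.6 and edgeR 3.20.9 was not repeated, and depth is known only through the lowest local background of a library. The sign of the shift that MACS2 applied to reads cannot be told, so summit positions are as deposited.

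Peaks sharing 1 bp were merged and assigned by RefSeq transcripts of mm10 (Python 3.11.15, pandas 2.3.3, numpy 2.4.6, scipy 1.17.1, pysam 0.24.0). The pileup was solved as the whole number of tags whose Poisson p matched the deposited value within 0.01 on the log10 scale. Log2 values, centred on the library median, were tested with limma 3.58.1 in R 4.3.3 over all regions called in 4 libraries, with Benjamini-Hochberg adjustment, and with 2 libraries per genotype the variance was moderated across regions. Both solver and test were checked on simulated data. The genes and lists were chosen with earlier results of these data known. For every gene the strongest region, the region over its TSS, every region past a call in the fits to all 4 libraries and the 5 largest changes of fold enrichment in each direction were named, and further regions were chosen after their values were seen. Motifs were searched on both strands within 100 bp of the strongest summit. The counts of regions by rank of peaks, the shared calls without 1 library, the calls of the 10 genes under each alternative, and the pileup fits without 1 library or with quantile normalization were added after seeing the data. RefSeq's promoter table held 3 of the 10 genes.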

Additional observations from a re-analysis of the deposited data

How the results depend on the processing

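With 2 libraries per genotype, 1 library can decide a call, and a peak list holds no value below its threshold. A fit without 1 library leaves a genotype with a lone library, assumed to vary like the others. The number of member regions was 41 with an equal number of peaks per library and 72 within the gene body and 10 kb on either side. Member regions of both Cre+ libraries alone then numbered 0, against 7.82% of all regions, and 5, against 22.8%. Without 1 library they numbered 11 to 38 (9.82 to 33.9%), against 22.8 to 48.3% of all regions. Those of both controls alone numbered 12 with equal numbers of peaks (29.3%, against 7.22% of all regions). Without 1 library they numbered 0 to 11 (0 to 9.82%), against 0.0763 to 1.78% of all regions. For these counts, leaving out a library also changes how many libraries must share a call.

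Regions called higher on fold enrichment numbered 379 on the pileup, 0 with no centring, 2750 among regions called in at least 1 library of each genotype, 61 with a mean-variance trend and 3 to 757 without 1 library. Regions called lower numbered 757, 0, 137 and 76 in the same order, 2 with quantile normalization and 9 to 543 without 1 library. Genes called higher numbered 173 on the pileup, 37 with quantile normalization, 0 with no centring, 0 among regions called in at least 1 library of each genotype, 21 with a trend and 0 to 120 without 1 library. Genes called lower numbered 522, 9 with quantile normalization, 2 with summits and 100 bp on either side, 33 with a trend and 0 to 226 without 1 library. Member regions called higher numbered 2 of 71 among regions called in at least 1 library of each genotype, against 2750 of 35577. Both lay at Garnl3, with a value in 1 control library alone. Member regions called lower numbered 5 of 35 on the pileup, against 4.98% of all regions. Among regions called in at least 1 library of each genotype there was 1 of 71, against 0.385%. With a trend there was 1 of 35, against 0.500%. No member gene passed the call under any of these settings. The causes were not tested.

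Of 87 values of the strongest regions of 8 genes, 78 kept their direction and 9 reversed, none past the call. On the pileup, Garnl3 changed by −0.27, Cd93 by −0.35 and Arg1 by −0.026. Without 1 library, Icam2 ranged from −0.10 to 0.39, Garnl3 from −0.13 to 0.20, Cd93 from −0.10 to 0.28 and Arg1 from −0.19 to 0.18, each with its lowest value without control replicate 3. With no centring, Lbp changed by 0.17, Ltbp1 by 0.24 and the Garnl3 region 84.3 kb into the gene by 0.16, while the median of all regions moved from −0.09 to 0.28. No paired analysis was possible because the genotypes share only replicate number 1.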
